A study of Mus musculus with 4 samples.

Results

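Interferons switch on a shared programme of antiviral and antimicrobial genes, and 34 genes of that programme were followed here in intraepithelial lymphocytes (IELs), the T cells that live within the lining of the gut, of mouse colon. They were taken by symbol from a list, by a rule that uses no measured value, out of 15301 genes listed in at least 1 of 4 single-cell libraries. They were split by the interferon each is best known to answer to into 21 type I-type members, 11 gamma-type members and 2 receptors. This split is one of background knowledge, and many members respond to both kinds of interferon. All 34 members were listed in TCRβ Tcf7KO, 33 in TCRβ Tcf7WT, and 32 in each TCRγδ library. Oasl2 was not listed in either Tcf7WT library, Iigp1 not in either TCRγδ library and Ifit3 not in TCRγδ Tcf7KO.

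The study compared 2 sorts of live CD3+ CD8α+ colon IELs, each from Tcf7KO and from Tcf7WT mice. TCRγδ+ cells (labelled by their TCRγ chain in the cell type field) and TCRβ+ cells were profiled by 10x Genomics 3′ sequencing of single cells in droplets, 1 library per group. The strain label is E8IcreTcf7fl/fl for all 4 libraries, Tcf7WT included, so the genotype rests on the genotype label alone. The E8I element is an enhancer of Cd8a, and a Cre driven by it acts in mature CD8α+ T cells and not in the whole animal; TCF-1, the product of Tcf7, is a DNA-binding protein known from naive and memory lymphocytes. The labels do not give the number or age of the mice. The files held 1511 cells for TCRγδ Tcf7KO, 1888 for TCRγδ Tcf7WT, 5785 for TCRβ Tcf7KO and 7603 for TCRβ Tcf7WT.

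The libraries held 7184668, 6195292, 18372180 and 20289960 UMIs in that order. A UMI (unique molecular identifier) marks 1 captured transcript, and median UMIs per cell ran from 2431 in TCRβ Tcf7WT to 4366 in TCRγδ Tcf7KO. Levels are given in CPM (counts per 1e6 UMIs): the UMIs of a gene, added over the cells of 1 library and divided by that library's total in units of 1e6. Ranges in parentheses after a value are 95% intervals of counting error. They say nothing of the spread between animals or preparations, since every group is a single library, and no difference was tested. Defining markers fitted the sorts, with Cd3e at 1403 to 1972 CPM in all 4 libraries, Trdc at 1905 and 1946 CPM in the TCRγδ libraries and Trdc at 14.7 and 15.4 CPM in the TCRβ libraries. Tcf7 stood at 14.6 CPM in TCRγδ Tcf7KO against 45.7 CPM in TCRγδ Tcf7WT, and at 107 CPM in TCRβ Tcf7KO against 148 CPM in TCRβ Tcf7WT; reads taken at the 3′ end may miss the deleted exons, so these levels are no check of the labels. Epithelial markers summed to 1749 CPM in TCRγδ Tcf7KO, 598 CPM in TCRγδ Tcf7WT and 337 to 339 CPM in the TCRβ libraries. In TCRγδ Tcf7KO, 20 cells with at least 20 epithelial UMIs held 6.19% of all UMIs, so the class medians and member ratios below were also computed without such cells. Myeloid and dendritic markers summed to 9.46 to 18.7 CPM and B and plasma markers to 27.4 to 38.1 CPM. Over all pairs of libraries 26 cell barcodes were shared.

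Type I interferons (interferon-α and -β) bind a receptor of IFNAR1 and IFNAR2 on most cells, which signals through TYK2 and JAK1 to a complex that includes STAT2 and IRF9 and binds the interferon-stimulated response element (ISRE). Interferon-γ, made by T and NK cells, binds IFNGR1 and IFNGR2 and signals through JAK1 and JAK2 to the gamma-activated sequence (GAS). In the gut, IELs both make interferon-γ and stand next to epithelial cells that answer to it.

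The promoters of 6 members are shown because they carry the 2 motifs in different mixes and because the results below turn on these genes. Each is the 250 bases before the RefSeq start on GRCm38.p6, read along the gene's strand, with every ISRE match (GAAA, any 2 bases, GAAA) and GAS match (TTCNNNGAA) in capitals; both motifs were searched on both strands, overlaps allowed, and the ISRE matches of Ifit1 lie on the opposite strand and so read with TTTC at both ends.
Isg15, chr4:156200819-156201068, minus strand: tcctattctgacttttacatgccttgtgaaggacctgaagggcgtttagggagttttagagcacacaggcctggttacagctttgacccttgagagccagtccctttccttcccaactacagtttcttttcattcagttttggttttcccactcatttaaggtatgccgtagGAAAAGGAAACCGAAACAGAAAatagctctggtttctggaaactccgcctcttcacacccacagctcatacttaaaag
Ifit1, chr19:34640639-34640888, plus strand: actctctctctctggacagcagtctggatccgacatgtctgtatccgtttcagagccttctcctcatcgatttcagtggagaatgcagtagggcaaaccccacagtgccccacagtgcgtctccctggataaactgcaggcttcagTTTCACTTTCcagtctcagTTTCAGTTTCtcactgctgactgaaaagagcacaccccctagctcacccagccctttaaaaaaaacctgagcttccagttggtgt
Oas1a, chr5:120907526-120907775, minus strand: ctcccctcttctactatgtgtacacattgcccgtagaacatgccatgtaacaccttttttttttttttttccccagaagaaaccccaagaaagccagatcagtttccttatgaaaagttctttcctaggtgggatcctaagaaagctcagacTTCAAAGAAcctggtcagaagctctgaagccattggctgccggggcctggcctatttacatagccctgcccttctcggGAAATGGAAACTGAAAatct
Irf1, chr11:53769764-53770013, plus strand: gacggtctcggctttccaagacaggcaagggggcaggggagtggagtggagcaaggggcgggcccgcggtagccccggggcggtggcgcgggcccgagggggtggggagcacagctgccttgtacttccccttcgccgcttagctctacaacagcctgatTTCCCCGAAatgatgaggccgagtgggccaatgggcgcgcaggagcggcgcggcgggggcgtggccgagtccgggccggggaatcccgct
Irgm2, chr11:58214727-58214976, plus strand: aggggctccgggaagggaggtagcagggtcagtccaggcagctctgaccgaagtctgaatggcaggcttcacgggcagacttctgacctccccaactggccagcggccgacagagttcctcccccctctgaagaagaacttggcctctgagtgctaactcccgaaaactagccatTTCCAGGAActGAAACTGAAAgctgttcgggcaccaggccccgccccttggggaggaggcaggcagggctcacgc
Irgm1, chr11:48871421-48871670, minus strand: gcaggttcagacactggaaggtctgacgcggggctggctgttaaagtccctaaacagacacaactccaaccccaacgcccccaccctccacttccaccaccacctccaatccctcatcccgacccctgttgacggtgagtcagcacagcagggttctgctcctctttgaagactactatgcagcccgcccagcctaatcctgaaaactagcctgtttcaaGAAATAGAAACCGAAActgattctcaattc

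In Isg15, 3 overlapping ISRE matches lie between 78 and 57 bases before the start. Irgm2 holds a GAS match at 75 to 67 bases and an ISRE match at 64 to 55 bases before its start, and Irf1 holds a GAS match alone at 90 to 82 bases. RefSeq promoters were found for 27 of the 34 members. An ISRE match was present in 7 of 16 type I-type members (43.8%), 6 of 9 gamma-type members (66.7%) and 0 of 2 receptors, against 3.46% of all 27025 genes with a promoter. A GAS match was present in 5 of 16 type I-type members (31.2%), 5 of 9 gamma-type members (55.6%) and 0 of 2 receptors, against 8.13% of all genes. The shares with either motif were higher in both classes than among all genes, and gamma-type promoters held the ISRE letters as well. A match is a run of letters and not a measured binding site.

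Across the 4 libraries the members were expressed in every sort and genotype, with the exception of the few that were barely counted. Oasl2 had 6 UMIs in TCRγδ Tcf7KO and 8 in TCRβ Tcf7KO, and Iigp1 had 10 in TCRβ Tcf7KO and 4 in TCRβ Tcf7WT, so neither was compared. Summed type I-type members made up 704 CPM in TCRγδ Tcf7KO, 797 CPM in TCRγδ Tcf7WT, 822 CPM in TCRβ Tcf7KO, against 851 CPM in TCRβ Tcf7WT. Summed gamma-type members made up 1125 CPM, 1147 CPM, 1196 CPM and 1152 CPM in the same order. The lowest sum of either class was therefore that of TCRγδ Tcf7KO, and the sums of all 4 libraries lay close together. These sums keep the epithelial-marker cells, which held 6.19% of all UMIs in TCRγδ Tcf7KO. In cells thinned to equal depth the mean of summed gamma-type UMIs was 1.88 in both TCRγδ Tcf7KO and TCRβ Tcf7WT, so the order for that class is uncertain.

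**Figure D1:**
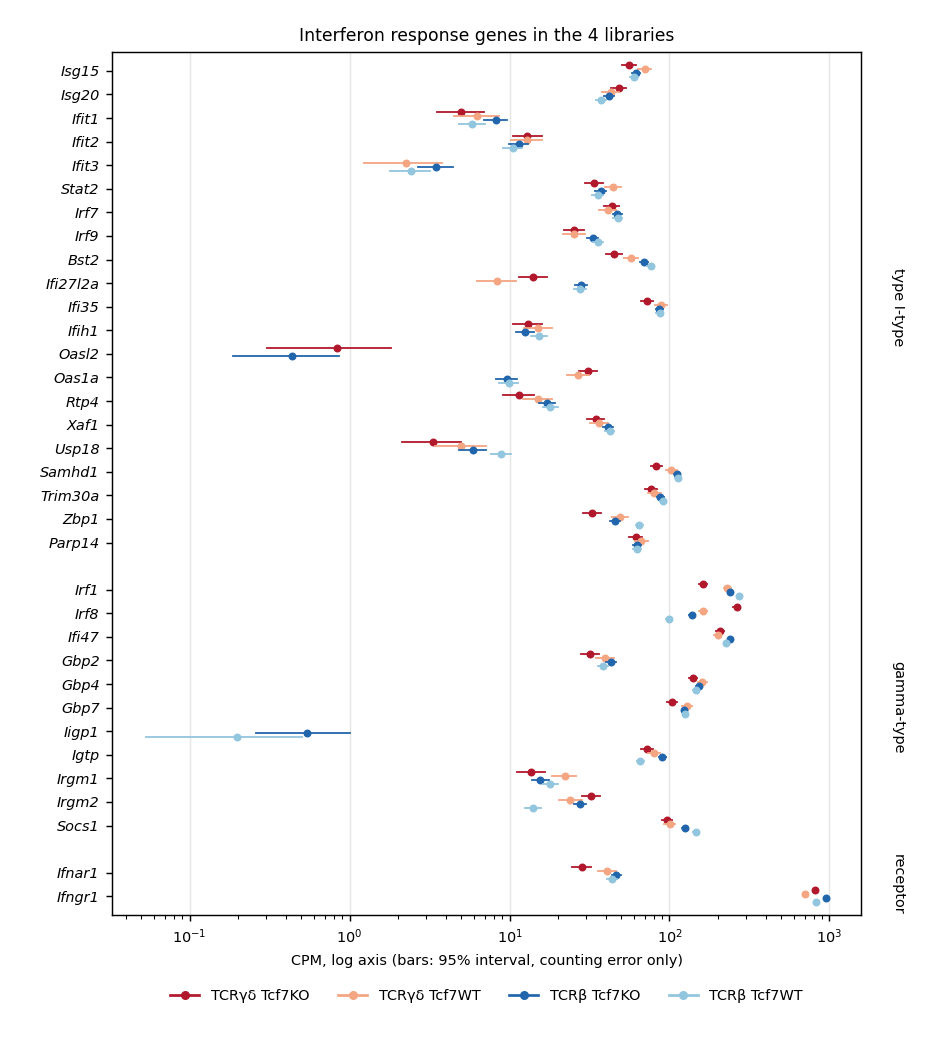
Level of each member in CPM (log axis) in the 4 libraries, with dots for levels and bars for 95% intervals of counting error, grouped as type I-type members, gamma-type members and receptors. Most members sit within a narrow range over the libraries; Irf8 (99.4 to 263 CPM), Oas1a (9.63 to 31.0 CPM) and Ifi27l2a (8.39 to 27.9 CPM) spread further.

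Between genotypes in TCRγδ cells, the members stood slightly lower in Tcf7KO than in Tcf7WT in both classes. The median log2 ratio was -0.21 over 19 measured type I-type members and -0.17 over 10 gamma-type members, against -0.03 over all 10512 genes with at least 50 UMIs over both libraries. Of 31 measured members, 22 were below 0 (55.3% of all genes were), 12 had an interval wholly below 0 (17.7% of all genes did) and 4 had one wholly above 0 (15.7% of all genes). By size, 2 members were at least 1.5-fold higher (6.9% of all genes) and 1 was at least 1.5-fold lower (4.97%). The lower levels were thus spread over many members in small steps, and large differences were few. Without the cells with at least 20 epithelial UMIs the medians were -0.26 for type I-type members and -0.11 for gamma-type members.

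Among signalling genes of TCRγδ cells, the ligand differed most. Ifng, which encodes interferon-γ, stood at 29.0 CPM (25.1 to 33.2) in TCRγδ Tcf7KO and 130.6 CPM (122 to 140) in TCRγδ Tcf7WT, a log2 ratio of -2.17. Ifnar1, a chain of the type I receptor, stood at 28.3 CPM (24.5 to 32.4) in TCRγδ Tcf7KO and 40.7 CPM (35.8 to 46.0) in TCRγδ Tcf7WT, a log2 ratio of -0.53 (-0.80 to -0.25). Ifngr1, the ligand-binding chain of the interferon-γ receptor, stood the other way, at 809.6 CPM in TCRγδ Tcf7KO and 705 CPM in TCRγδ Tcf7WT, a log2 ratio of 0.20 (0.14 to 0.26). Thus the intervals of both receptor chains did not overlap between genotypes, and the receptors differed in opposite directions. Ifngr2, the partner chain of Ifngr1, was higher as well, at 12.0 CPM in TCRγδ Tcf7KO against 6.46 CPM in TCRγδ Tcf7WT, a log2 ratio of 0.89 (0.33 to 1.47) on 86 and 40 UMIs. Stat2, part of the type I complex, had a log2 ratio of -0.39 (-0.65 to -0.14), which came to -0.20 in cells thinned to equal depth. Irf9 stood at 25.3 CPM in both TCRγδ libraries. Ifnb1, Ifna4, Ifnl3 and the receptor chain gene Ifnlr1 were not listed in any library.

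Type I-type effectors of TCRγδ cells gave a median of small negative ratios with 1 member called in the other direction. Zbp1, a sensor of Z-form nucleic acid that can start cell death, stood at 33.0 CPM (28.9 to 37.5) in TCRγδ Tcf7KO and 48.9 CPM (43.6 to 54.7) in TCRγδ Tcf7WT, a log2 ratio of -0.57 (-0.82 to -0.32). Isg15, a ubiquitin-like modifier, stood at 55.7 CPM in TCRγδ Tcf7KO and 69.9 CPM in TCRγδ Tcf7WT, a log2 ratio of -0.33 (-0.53 to -0.13), which came to -0.10 in cells thinned to equal depth. Intervals wholly below 0 were also found for Bst2 (-0.35), which tethers budding virus particles to the cell surface, Samhd1 (-0.31), which breaks down deoxynucleotides, and Ifi35 (-0.29). In thinned cells Bst2 came to -0.28, Samhd1 to -0.06 and Ifi35 to -0.42. None of these reached 1.5-fold. Ifi27l2a, a small interferon-inducible protein gene, was the exception, with 101 UMIs (14.1 CPM) in TCRγδ Tcf7KO against 52 UMIs (8.39 CPM) in TCRγδ Tcf7WT, a log2 ratio of 0.74 (0.25 to 1.26). The intervals of the 2 levels did not overlap, and the counts came from 47 cells in TCRγδ Tcf7KO and 31 cells in TCRγδ Tcf7WT. Oas1a, at 0.20 in all cells, was at -0.02 without the cells with at least 20 epithelial UMIs. Members at log2 ratios of -0.12 to 0.20 with an interval over 0 were Isg20, Ifit2, Irf7, Irf9, Oas1a, Xaf1, Trim30a and Parp14. Ifit1, Ifih1, Rtp4 and Usp18 had ratios of -0.33, -0.21, -0.40 and -0.58 on few UMIs, each with an interval over 0.

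Gamma-type members of TCRγδ cells differed in both directions, also within gene families. Irf8, a transcription factor of the interferon regulatory family best known in myeloid cells and also expressed in activated T cells, stood at 263 CPM (251 to 275) in TCRγδ Tcf7KO and 162 CPM (152 to 173) in TCRγδ Tcf7WT, a log2 ratio of 0.70 (0.59 to 0.81). Irf1, the first-wave transcription factor of the interferon-γ response, stood at 163 CPM (154 to 173) in TCRγδ Tcf7KO and 229.9 CPM (218 to 242) in TCRγδ Tcf7WT, a log2 ratio of -0.49 (-0.61 to -0.38). These 2 factors of 1 family therefore differed in opposite directions, each with intervals apart. Immediate-early genes, transcripts that appear soon after a stimulus or tissue handling, also stood lower beside Irf1, at a median log2 ratio of -0.27 with 3 of 12 at least 1.5-fold lower, and their part in the Irf1 value was not tested. The guanylate-binding protein genes Gbp2 (-0.31), Gbp4 (-0.19) and Gbp7 (-0.30), whose products attack pathogen vacuoles, all had intervals below 0. Among the immunity-related GTPases, which act at the same vacuoles, Irgm1 stood at 13.6 CPM in TCRγδ Tcf7KO and 22.1 CPM in TCRγδ Tcf7WT, a log2 ratio of -0.70 (-1.09 to -0.31) on 98 and 137 UMIs. Irgm2 went the other way, at 32.4 CPM in TCRγδ Tcf7KO and 24.1 CPM in TCRγδ Tcf7WT, a log2 ratio of 0.43 (0.13 to 0.74). Igtp (-0.15), Ifi47 (0.05) and Socs1 (-0.05), the last an inhibitor of JAK kinases, had intervals over 0.

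Other genes of the pathway, taken from longer lists, showed a like pattern in TCRγδ cells. Of 19 measured gamma-type genes outside the members, 17 were below 0, 11 had an interval wholly below 0 (17.7% of all genes) and 0 had one above (15.7%), at a median log2 ratio of -0.26; none was called at 1.5-fold. They include Nlrc5 (-0.46), which drives MHC class I genes, the immunoproteasome gene Psmb9 (-0.31) and the peptide transporter gene Tap2 (-0.30). Of 29 type I-type genes, 6 were at least 1.5-fold lower (4.97% of all genes) and 2 higher (6.9%), at a median of -0.23. Among those with at least 100 UMIs the largest ratios were Ifitm2 (2.41), which restricts virus entry, Phf11b (-1.91), Ifit1bl1 (-1.54) and Ifi213 (-0.61). Ifitm2 rests on 105 UMIs in TCRγδ Tcf7KO and 17 in TCRγδ Tcf7WT. The values of these other genes keep the epithelial-marker cells, which held 6.19% of all UMIs in TCRγδ Tcf7KO. The part of those cells in the Ifitm2 ratio was not tested.

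**Figure D2:**
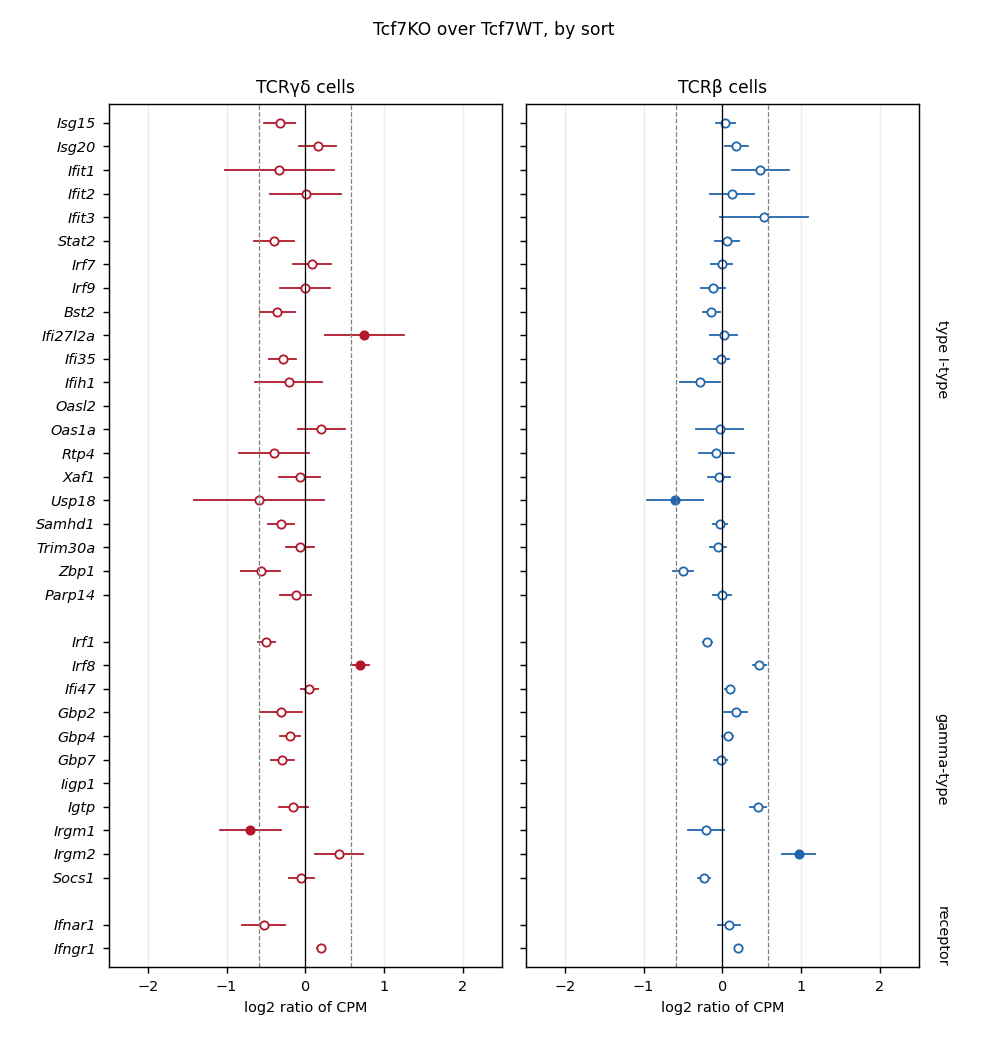
Log2 ratio of CPM, Tcf7KO over Tcf7WT, for each measured member in TCRγδ cells (left) and TCRβ cells (right), with bars for 95% intervals of counting error, dashed lines at 1.5-fold and filled dots for members past it. In TCRγδ cells 22 of 31 members lie below 0; in TCRβ cells 16 of 32 do.

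In TCRβ cells the class medians lay near 0 between genotypes. The median log2 ratio, Tcf7KO over Tcf7WT, was -0.02 over 20 type I-type members and 0.08 over 10 gamma-type members, against -0.07 over all 11777 genes. Of 32 measured members, 16 lay above 0 (35.1% of all genes did) and 16 below. An interval wholly above 0 was found for 8 members (11.6% of all genes) and one wholly below 0 for 6 (26.1%). At 1.5-fold, 1 member was higher (2.13% of all genes) and 1 was lower (3.8%). The 1 higher was Irgm2 and the 1 lower was Usp18.

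Irgm2 stood at 27.7 CPM (25.3 to 30.2) in TCRβ Tcf7KO and 14.1 CPM (12.5 to 15.8) in TCRβ Tcf7WT, a log2 ratio of 0.97 (0.76 to 1.19) on 508 and 286 UMIs. TCRβ Tcf7WT was thus the low library for this gene, below both TCRγδ libraries as well. Its ratio lay between 0.92 and 1.16 under the 12 alternatives tried. Igtp, which encodes another GTPase of the group, stood at 90.4 CPM (86.1 to 94.8) in TCRβ Tcf7KO and 65.8 CPM (62.4 to 69.5) in TCRβ Tcf7WT, a log2 ratio of 0.46 (0.35 to 0.56). The 2 genes overlap on the same strand of chromosome 11, with Igtp from 58199556 to 58207591 and Irgm2 from 58199618 to 58222782 on GRCm38, so UMIs of the shared stretch may have been assigned to either and the split between them is uncertain. Irgm1, which lies elsewhere on that chromosome, stood at 15.6 CPM in TCRβ Tcf7KO, against 18.0 CPM in TCRβ Tcf7WT, with an interval over 0. Irf8 was higher too, at 138 CPM (133 to 144) in TCRβ Tcf7KO and 99.4 CPM (95.1 to 104) in TCRβ Tcf7WT, a log2 ratio of 0.47 (0.39 to 0.56). Ifi47 (0.09) and Gbp2 (0.17) lay just above 0, and Gbp4 (0.07) and Gbp7 (-0.02) had intervals over 0. Socs1 stood at 125 CPM in TCRβ Tcf7KO, against 146 CPM in TCRβ Tcf7WT (-0.23), and Irf1 at 239 CPM in TCRβ Tcf7KO, against 273 CPM in TCRβ Tcf7WT (-0.19).

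Usp18, which removes Isg15 from proteins and dampens the type I receptor, stood at 5.88 CPM (4.82 to 7.10) in TCRβ Tcf7KO and 8.87 CPM (7.62 to 10.3) in TCRβ Tcf7WT, a log2 ratio of -0.59 (-0.95 to -0.24) on 108 and 180 UMIs. The levels did not overlap, and the ratio lay between -0.90 and -0.49 under the 12 alternatives, so that some fell short of 1.5-fold. Zbp1 stood at 45.7 CPM (42.7 to 48.9) in TCRβ Tcf7KO and 64.8 CPM (61.4 to 68.4) in TCRβ Tcf7WT, a log2 ratio of -0.50 (-0.63 to -0.38). It was therefore lower in Tcf7KO in both sorts by a like amount, just short of 1.5-fold in each. Isg15 (0.04), Stat2 (0.07), Irf7 (-0.01), Ifi27l2a (0.02), Ifi35 (-0.01), Samhd1 (-0.03), Xaf1 (-0.04), Trim30a (-0.05), Oas1a (-0.03), Rtp4 (-0.07), Irf9 (-0.12), Ifit2 (0.12) and Parp14 (0.00) had intervals over 0, as did Ifit3 (0.53) on 64 and 49 UMIs. Isg20, a nuclease gene, was at 0.18, Bst2 at -0.14 and Ifih1, which encodes the RNA sensor MDA5, at -0.28, each with an interval on 1 side of 0. Ifit1, whose product binds viral RNA, was at 0.49 (0.13 to 0.85), and that value rests on few cells, as given below.

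In TCRβ cells the ligand differed by less, and the interferon-γ receptor chains by a like amount. Ifng had a level of 51.4 CPM in TCRβ Tcf7KO, against 63.8 CPM in TCRβ Tcf7WT, a log2 ratio of -0.31 (-0.43 to -0.19). Ifngr1 stood at 952 CPM in TCRβ Tcf7KO, against 828 CPM in TCRβ Tcf7WT, a log2 ratio of 0.20 (0.17 to 0.23), and Ifngr2 at 20.03 CPM in TCRβ Tcf7KO, against 12.1 CPM in TCRβ Tcf7WT, one of 0.72 (0.49 to 0.96). Over all cells, both chains of the interferon-γ receptor were thus higher in Tcf7KO in both sorts. For Ifngr1 in TCRγδ cells this was not seen in every kind of cell, as given below. Ifnar1 (0.09) had an interval over 0. Outside the members, the largest ratios with at least 100 UMIs were those of Cxcl10 (0.90), a chemokine gene, Ciita (-0.58), the switch of MHC class II genes, Slfn5 (0.55), Ifi204 (0.41) and Stat3 (0.39). Other type I-type genes had 1 of 34 at least 1.5-fold higher (2.13% of all genes) and 1 lower (3.8%), and other gamma-type genes 1 of 19 higher and 0 lower. The difference between sorts in the genotype ratio was not tested for any gene.

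Between sorts, TCRγδ over TCRβ, members over all cells stood mostly lower in TCRγδ cells of Tcf7KO mice and near even in Tcf7WT mice. For type I-type members this was not seen in every kind of cell, as given below. In Tcf7KO the median log2 ratio was -0.24 over 19 type I-type members and -0.23 over 10 gamma-type members, against -0.07 over all 11331 genes. Of 31 measured members 25 were below 0 (58.5% of all genes were), and 20 had an interval wholly below 0 (29.4% of all genes), with 4 wholly above 0 (21% of all genes). By size, 6 were at least 1.5-fold lower (8.54% of all genes) and 2 at least 1.5-fold higher (11.1%). In Tcf7WT the medians were -0.12 for type I-type members and 0.10 for gamma-type members, against -0.09 over all 11301 genes, with 2 members at least 1.5-fold lower (8.27% of all genes) and 3 higher (8.43%). There 12 of 32 measured members had an interval wholly below 0 (29.7% of all genes) and 8 one wholly above 0 (17.2%). These comparisons use the same 4 libraries as those between genotypes and so are not independent of them.

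Oas1a, which makes the 2′-5′-linked messenger that activates RNase L, stood apart by sort in both genotypes. It stood at 31.0 CPM (27.1 to 35.4) in TCRγδ Tcf7KO against 9.63 CPM (8.27 to 11.2) in TCRβ Tcf7KO, a log2 ratio of 1.69 (1.40 to 1.98). In Tcf7WT it stood at 26.96 CPM (23.0 to 31.4) in TCRγδ against 9.86 CPM (8.54 to 11.3) in TCRβ cells, a log2 ratio of 1.45 (1.15 to 1.76). Both TCRγδ libraries thus lay above both TCRβ libraries, by 3.22-fold in Tcf7KO and 2.73-fold in Tcf7WT. Without the cells with at least 20 epithelial UMIs the log2 ratios of Oas1a were 1.45 in Tcf7KO and 1.43 in Tcf7WT. Its near-copy Oas1g showed the same sort pattern, at log2 ratios of 1.35 in Tcf7KO and 1.23 in Tcf7WT, and reads of the 2 genes may not be separable. Oasl1, a more distant relative, stood the other way at -1.86 in Tcf7KO and -2.06 in Tcf7WT, on 15 and 10 UMIs in the TCRγδ libraries.

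Irf8 was the other member at least 1.5-fold higher in TCRγδ cells in both genotypes, at a log2 ratio of 0.93 (0.84 to 1.02) in Tcf7KO, and one of 0.71 (0.60 to 0.82) in Tcf7WT. The order of its levels was TCRγδ Tcf7KO, TCRγδ Tcf7WT, TCRβ Tcf7KO and TCRβ Tcf7WT, with no overlap of intervals between neighbours. Ifi27l2a showed the reverse by sort, at 14.1 CPM in TCRγδ Tcf7KO against 27.9 CPM in TCRβ Tcf7KO (-0.99) and 8.39 CPM in TCRγδ Tcf7WT against 27.6 CPM in TCRβ Tcf7WT (-1.71). Usp18 was lower in TCRγδ cells at -0.82 in Tcf7KO and -0.83 in Tcf7WT, and the Tcf7KO value of Usp18 came to -0.23 in thinned cells, short of 1.5-fold. In Tcf7KO alone the call also took in Ifit1 (-0.71), Bst2 (-0.62), Rtp4 (-0.59) and Ifnar1 (-0.72), and in Tcf7WT alone Irgm2 (0.77). In thinned cells Ifit1 (-0.46) and Bst2 (-0.51) also fell short of 1.5-fold. Socs1 (-0.36 in Tcf7KO and -0.54 in Tcf7WT) and Irf9 (-0.38 and -0.50) lay below 0 in both genotypes, short of 1.5-fold. The members not called lay between -0.55 (Irf1) and 0.23 (Irgm2) in Tcf7KO and between -0.54 (Socs1) and 0.32 (Stat2) in Tcf7WT. Slfn5 (-3.04 in Tcf7KO and -1.17 in Tcf7WT) and Slfn1 (-2.81 and -0.92), Schlafen genes outside the members, were also lower in TCRγδ cells, on 12 Slfn5 and 18 Slfn1 UMIs in TCRγδ Tcf7KO, and Cxcl10 (1.13) was higher in Tcf7WT. In Tcf7KO, Ifitm2 was at 2.64, with the epithelial-marker cells kept in, and Phf11b at -2.03. Ifng was at 1.03 in Tcf7WT and -0.83 in Tcf7KO.

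**Figure D3:**
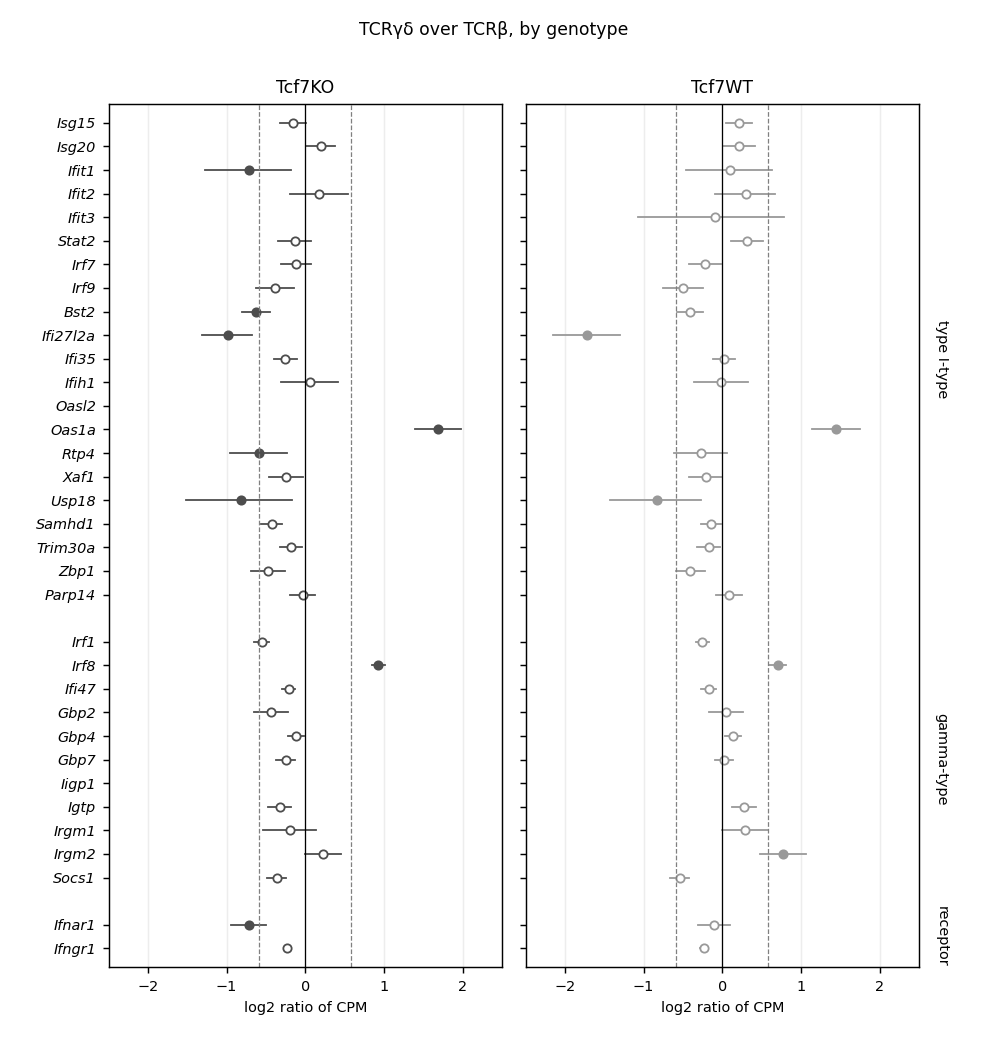
Log2 ratio of CPM, TCRγδ over TCRβ, for each measured member in Tcf7KO (left) and Tcf7WT (right), with bars for 95% intervals of counting error, dashed lines at 1.5-fold and filled dots for members past it. Oas1a and Irf8 lie above 1.5-fold in both genotypes and Ifi27l2a and Usp18 below it in both.

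How the members were spread over cells was read after each cell was thinned to 1624 UMIs, with shallower cells left out, which kept 1483, 1588, 5296 and 6844 cells. Single members were seen in few cells at that depth. Isg15 was detected in 8.90% of TCRγδ Tcf7KO cells, 9.76% of TCRγδ Tcf7WT cells, 9.25% of TCRβ Tcf7KO cells and 8.74% of TCRβ Tcf7WT cells, and Ifit1 in 0.756% to 0.982%. For Ifngr1 the shares ran from 64.3% to 72.9%. Irf8 was detected in 33.2% of TCRγδ Tcf7KO cells, 21.7% of TCRγδ Tcf7WT cells, 17.2% of TCRβ Tcf7KO cells and 13.2% of TCRβ Tcf7WT cells; without thinning the shares were 65.2%, 35.9%, 28.7% and 19.6%. Among 43 epithelial-marker cells, 6 had a thinned Irf8 UMI (14.0%, 5.30 to 27.9), at a median of 14794 UMIs before thinning. The T cell gene Cd3g had a UMI in 0 of the 43, which allows up to 6.98%. The shares of TCRβ Tcf7WT, TCRβ Tcf7KO and TCRγδ Tcf7WT lie within that Irf8 interval. Whether these Irf8 UMIs are background or the epithelial cells' own was not tested.

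Type I-type members had similar mean UMIs per cell in the 4 libraries. In thinned cells they varied more from cell to cell in the TCRβ than in the TCRγδ libraries. The mean of their summed UMIs per thinned cell was 1.24 in TCRγδ Tcf7KO, 1.33 in TCRγδ Tcf7WT, 1.35 in TCRβ Tcf7KO and 1.40 in TCRβ Tcf7WT. The variance over the mean, which is 1 for counts that fall on cells at random, was 1.16 in TCRγδ Tcf7KO and 1.12 in TCRγδ Tcf7WT against 1.49 in TCRβ Tcf7KO and 1.42 in TCRβ Tcf7WT. Without thinning it was 2.19 in TCRγδ Tcf7KO, 1.87 in TCRγδ Tcf7WT, 2.92 in TCRβ Tcf7KO and 2.11 in TCRβ Tcf7WT, so the sorts were not apart. Of thinned UMIs, the 5% of cells with the most held 18.3%, 16.8%, 18.7% and 18.0% in the same order. The most UMIs in 1 thinned cell were 8, 13, 33 and 40. Single cells with such counts weigh on a variance, and its value without them is not given here. Whether the gap between sorts in thinned cells rests on a few such cells was not tested. UMIs of at least 4 type I-type members were found in 2.63% (1.88 to 3.58) of TCRγδ Tcf7KO cells, 3.46% (2.62 to 4.48) of TCRγδ Tcf7WT cells, 3.29% (2.82 to 3.80) of TCRβ Tcf7KO cells and 4.14% (3.68 to 4.63) of TCRβ Tcf7WT cells. The intervals of neighbouring shares overlapped, while the lowest, TCRγδ Tcf7KO, and the highest, TCRβ Tcf7WT, lay apart. At the far end, the most members in 1 cell were 6 in each TCRγδ library, 15 in TCRβ Tcf7KO and 17 in TCRβ Tcf7WT. Gamma-type sums had a variance over the mean of 1.22 to 1.29 and at least 4 members in 4.84% to 6.42% of cells, with no such difference by sort. Of single members above 50 UMIs, Ifit1 was the least evenly spread in TCRβ Tcf7KO at 1.91, with Ifi27l2a at 1.70 and Ifit3 at 1.60, whereas Bst2, Ifi35 and Stat2 lay between 0.968 and 1.06 in all 4 libraries. After thinning, Isg15 was less even in TCRγδ cells, at 1.59 in Tcf7KO and 1.48 in Tcf7WT, than in TCRβ cells, at 1.24 in Tcf7KO and 1.31 in Tcf7WT. Without thinning that pattern was not seen, at 1.58 and 1.76 in TCRγδ and 1.54 and 1.76 in TCRβ cells. These ratios have no interval.

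**Figure D4:**
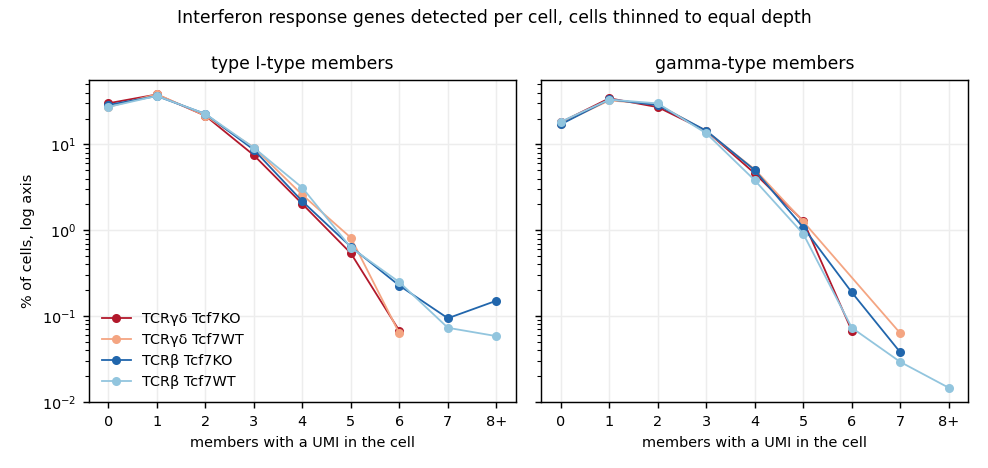
Share of thinned cells (log axis) by the number of type I-type members (left) or gamma-type members (right) with a UMI in the cell, for the 4 libraries; counts with 0 cells are not drawn. The curves run together up to 5 members, and among the type I-type curves only those of TCRβ cells go on to 8 or more, with 0.151% of TCRβ Tcf7KO cells and 0.0584% of TCRβ Tcf7WT cells there.

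At that far end stood 12 TCRβ cells with UMIs of at least 8 type I-type members. They were 8 of 5296 cells (0.151%, 0.0652 to 0.297) in TCRβ Tcf7KO and 4 of 6844 cells (0.0584%, 0.0159 to 0.150) in TCRβ Tcf7WT, shares whose intervals overlap. None was found among 1483 TCRγδ Tcf7KO cells, which allows a share of up to 0.202%, or among 1588 TCRγδ Tcf7WT cells, which allows up to 0.189%, so the TCRγδ libraries are too small to show an absence. All 12 had UMIs of Cd3 genes and of Cd8a, and myeloid, dendritic, B and plasma markers were at 0 in them. At full depth the 8 cells of TCRβ Tcf7KO held 301 of that library's 15097 type I-type UMIs, and the 4 cells of TCRβ Tcf7WT held 121 of 17269.

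Genes that played no part in picking these cells were higher in them too. Other type I-type genes stood 2.65-fold higher than in the remaining cells in TCRβ Tcf7KO and 3.93-fold higher in TCRβ Tcf7WT, and gamma-type members 2.87-fold and 4.12-fold higher. Single gamma-type members followed, with Gbp4 at a log2 ratio of 2.01 (0.79 to 2.99) in TCRβ Tcf7KO, and one of 2.89 (1.57 to 3.94) in TCRβ Tcf7WT. Irf1 had 2 thinned UMIs and Socs1 1 in these cells of each library, too few to read a direction, and Irf8 had none. Immediate-early genes were not higher there, at -0.23 in TCRβ Tcf7KO and -0.71 in TCRβ Tcf7WT, and cytotoxic markers were lower, at -2.05 in TCRβ Tcf7KO and -1.23 in TCRβ Tcf7WT. Naive or circulating markers stood at 0.82 (-0.05 to 1.57) in these cells of TCRβ Tcf7KO and 1.57 (0.76 to 2.27) in those of TCRβ Tcf7WT, and their part in the result was not tested. Cells were not used as replicates, and these values describe 12 cells.

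The few strong cells weighed most on Ifit1 and Ifit3. In TCRβ Tcf7KO they held 53 of 151 Ifit1 UMIs (35.1%) and 17 of 64 Ifit3 UMIs (26.6%), against 14 of 119 Ifit1 UMIs (11.8%) and 5 of 49 Ifit3 UMIs (10.2%) in TCRβ Tcf7WT. Of Isg15 UMIs they held 2.55% in TCRβ Tcf7KO and 1.23% in TCRβ Tcf7WT, and of Usp18 UMIs 6.48% and 0%. Without these cells the log2 ratio of Ifit1, Tcf7KO over Tcf7WT in TCRβ cells, was 0.05 in place of 0.49, and that of TCRγδ over TCRβ in Tcf7KO was -0.09 in place of -0.71. Ifit1 is thus called lower in TCRγδ Tcf7KO than in TCRβ Tcf7KO by way of 8 cells. Ifit3 has a near-copy, Ifit3b, and its counts are uncertain for that reason as well.

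In TCRβ cells some members also followed the kind of T cell. Cells with at least 3 thinned UMIs of Gzma, a granzyme gene of cytotoxic IELs, were 79.0% of TCRγδ Tcf7KO, 54.9% of TCRγδ Tcf7WT, 20.3% of TCRβ Tcf7KO and 7.13% of TCRβ Tcf7WT cells. Within TCRβ libraries, Irf8 was higher in Gzma cells than in other cells by log2 ratios of 1.08 in Tcf7KO and 1.30 in Tcf7WT, and Irgm2 by 1.10 in Tcf7KO and 1.01 in Tcf7WT. Ifi27l2a was lower there, by -2.72 in Tcf7KO and -2.15 in Tcf7WT. TCRγδ cells showed no such gap for Irf8, read without naive or epithelial-marker cells. In Tcf7WT it had 506 UMIs in 872 Gzma cells and 445 UMIs in 705 remaining cells. In Tcf7KO it had 1525 UMIs in 1171 Gzma cells and 325 UMIs in 289 remaining cells. Irgm2 had 76 and 61 UMIs in those cells of TCRγδ Tcf7WT, and 189 and 40 in those of TCRγδ Tcf7KO. TCRβ cells with at least 2 UMIs of naive or circulating T cell markers were 213 in Tcf7KO and 273 in Tcf7WT. They showed the reverse of TCRβ Gzma cells, with Ifi27l2a higher by 2.30 in Tcf7KO and 2.86 in Tcf7WT. Irf8 was lower in them by -3.21 and -1.71. Samhd1 was higher in those cells by 1.49 and 1.20.

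Since Gzma cells differed in share between genotypes, the ratios were also read within them and within the remaining cells without naive or circulating markers. In TCRγδ Tcf7KO, 20 epithelial-marker cells held 24.8% of the UMIs of the remaining cells, and none were among the Gzma cells, so the values below leave out cells with at least 20 epithelial UMIs. For Irgm2 in TCRβ cells the ratio, Tcf7KO over Tcf7WT, was 0.73 (0.25 to 1.24) in Gzma cells and 0.75 (0.49 to 1.01) in the remaining cells, both below its value of 0.97 in all cells. Irf8 in TCRβ cells gave 0.27 (0.08 to 0.46) in Gzma cells and 0.29 (0.18 to 0.39) in the remaining cells, both below its value of 0.47 in all cells. In TCRγδ cells Irf8 gave 0.80 (0.65 to 0.95) in Gzma cells and 0.52 (0.31 to 0.73) in the remaining cells. Its higher level in Tcf7KO was thus seen within both kinds of cell and in both sorts. Igtp in TCRβ cells had its larger ratio in Gzma cells, at 1.24 (0.88 to 1.61), against 0.27 (0.15 to 0.39) in the remaining cells. Zbp1 in TCRγδ cells had a ratio of -0.22 (-0.56 to 0.12) in Gzma cells and -0.75 (-1.25 to -0.28) in the remaining cells, and these intervals overlap. Irf1 in TCRγδ cells was lower in both, at -0.42 (-0.56 to -0.28) in Gzma cells and -0.55 (-0.79 to -0.33) in the remaining cells. Ifi27l2a was higher in TCRγδ Tcf7KO than in TCRγδ Tcf7WT in both, at 1.58 (0.67 to 2.60) in Gzma cells and 0.94 (0.25 to 1.62) in the remaining cells. Ifngr1 in TCRγδ cells was at 0.37 (0.29 to 0.44) in Gzma cells and -0.03 (-0.14 to 0.08) in the remaining cells. In TCRβ cells Ifngr1 gave 0.43 (0.34 to 0.53) in Gzma cells and 0.16 (0.13 to 0.20) in the remaining cells. Socs1 turned with the kind of cell in both sorts. In TCRγδ cells its ratio was 0.39 (0.17 to 0.61) in Gzma cells and -0.31 (-0.61 to -0.03) in the remaining cells, and in TCRβ cells 0.42 (0.14 to 0.71) in Gzma cells and -0.29 (-0.38 to -0.20) in the remaining cells.

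Over the class, gamma-type medians of Tcf7KO over Tcf7WT in Gzma cells were -0.25 in TCRγδ and 0.25 in TCRβ cells, and 10 of 10 measured gamma-type members were above 0 in the TCRβ ones, where 48.3% of all genes were. In those TCRβ cells Irf1 (0.07), Gbp2 (0.02), Gbp4 (0.02), Gbp7 (0.16) and Irgm1 (0.24) had intervals over 0. Irf8, Ifi47, Igtp, Irgm2 and Socs1 had intervals wholly above 0 there. In the remaining cells the gamma-type medians were -0.05 in TCRγδ, with 5 of 10 above 0 (45.3% of all genes), and 0.06 in TCRβ cells, with 6 of 10 above 0 (35.8% of all genes). The type I-type median of TCRγδ over TCRβ in Tcf7KO was 0.01 in Gzma cells. There 10 of 18 members were above 0 (40.2% of all genes). In the remaining cells it was -0.20, with 4 of 19 above 0 (41.8% of all genes). Gamma-type medians were -0.27 in Gzma cells and -0.15 in the remaining cells. In Tcf7WT, type I-type medians were 0.10 in Gzma cells and -0.16 in the remaining cells, and gamma-type ones 0.06 and -0.05. By sort, Oas1a was higher in TCRγδ than in TCRβ cells of either kind, by log2 ratios of 1.16 in Gzma cells and 1.41 in the remaining cells of Tcf7KO and 1.31 and 1.11 in those of Tcf7WT. With the epithelial-marker cells kept in, the remaining cells of Tcf7KO gave 2.40 for Oas1a. Bst2 in Tcf7KO was -0.21 (-0.48 to 0.07) in Gzma cells and -0.54 (-0.92 to -0.18) in the remaining cells. Irf8 in Tcf7WT, TCRγδ over TCRβ, differed in direction by kind of cell, at -0.22 (-0.43 to -0.01) in Gzma cells and 0.80 (0.65 to 0.95) in the remaining cells.

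**Figure D5:**
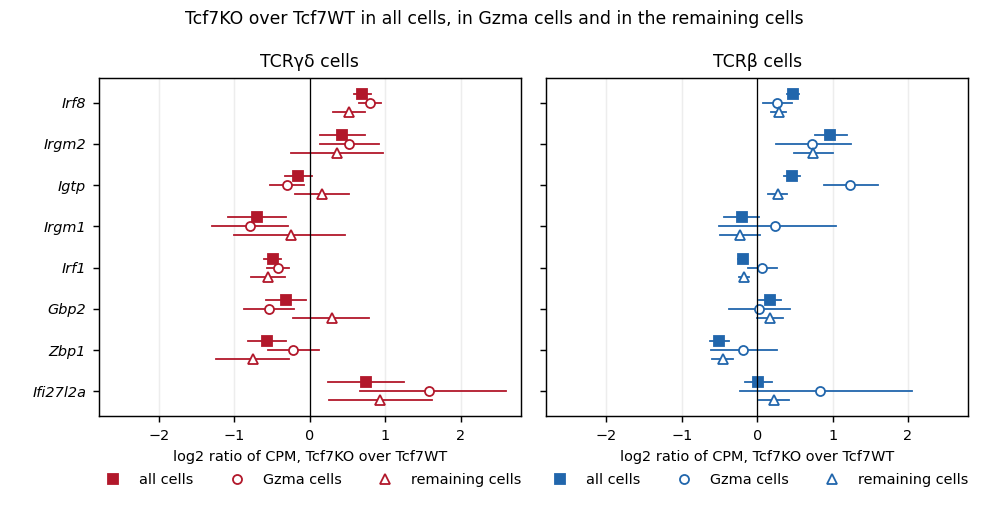
Log2 ratio of CPM, Tcf7KO over Tcf7WT, of 8 members in all cells, in cells with at least 3 Gzma UMIs and in the remaining cells without naive or circulating markers, for TCRγδ cells (left) and TCRβ cells (right), with bars for 95% intervals of counting error; both subsets leave out cells with at least 20 epithelial UMIs. Irgm2 in TCRβ cells keeps a ratio of 0.73 to 0.97 in all 3 sets, and Igtp in TCRβ cells ranges from 0.27 to 1.24.

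Cells with a UMI of the ligand itself were set against the other cells of their library. After thinning, Ifng was detected in 3.64% of TCRγδ Tcf7KO cells, 10.6% of TCRγδ Tcf7WT cells, 4.31% of TCRβ Tcf7KO cells and 5.04% of TCRβ Tcf7WT cells, and 0 of 43 epithelial-marker cells had a UMI of it, which allows up to 6.98%. Without thinning the shares were 6.22%, 15.04%, 6.55% and 6.52%. The thinned shares other than that of TCRγδ Tcf7WT lie under that limit. After thinning, the variance over the mean of Ifng was 1.62 in TCRγδ Tcf7KO and 4.33 to 5.52 in the other libraries. Without thinning it was 4.05 in TCRγδ Tcf7KO and 6.51 to 7.32 in the others. Ifng UMIs were thus packed into few cells in every library, though less clearly in TCRγδ Tcf7KO after thinning. In TCRβ cells with an Ifng UMI, Irf8 was lower than in other cells by -1.15 in Tcf7KO and -0.60 in Tcf7WT. In TCRγδ Tcf7WT, Igtp was higher in cells with an Ifng UMI by 0.58 (0.00 to 1.12) and Gbp7 by 0.46 (-0.00 to 0.90), and a Gbp7 UMI was found in 27.2% (20.7 to 34.6) of them against 18.0% (16.1 to 20.1) of other cells. The other gamma-type members there had intervals over 0, with Irf1 at 0.08 and Gbp4 at -0.24. In TCRβ cells Gbp4, Gbp7, Ifi47 and Irgm1 had intervals over 0 in both genotypes, and Irf1 was at 0.30 (0.01 to 0.58) in TCRβ Tcf7KO and -0.09 in TCRβ Tcf7WT.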

How the data were processed

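Colon IELs were sorted and made into 4 libraries with a 10x 3′ kit, per the labels' protocols, and the authors deposited a matrix of whole-number UMI counts for each library, with genes named by symbol. The submitters' processing notes name Seurat 3.0.0, with no role, and the builds GRCm38 and mm10. The mapping and counting settings are not given in the sources used here, nor is it known whether strand was used. No symbol beginning with mt-, Rpl or Rps is listed, and each library lists its own genes; a gene a library does not list got no value there.

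All deposited cells were kept. UMIs were summed per library and divided by its total (CPM, exact Poisson interval); log2 ratios of CPM have an exact interval conditional on both counts, and shares an exact Clopper-Pearson interval. Total depths of 6195292 to 20289960 UMIs set these intervals, and a count of 0 was given a limit of 3 counts. A difference was called at 1.5-fold with at least 50 UMIs over both libraries. The members and lists were chosen with earlier results of these data known. All members are named, with Ifng, Tcf7 and up to 6 other pathway genes per comparison by largest absolute ratio at 100 UMIs or more; Nlrc5, Psmb9, Tap2 and markers were named as background or checks after their values were seen. Scrublet (scanpy 1.11.5) called 28 and 10 doublets in TCRγδ Tcf7KO and Tcf7WT and 0 and 1 in TCRβ Tcf7KO and Tcf7WT, so it did not work in the TCRβ libraries. Promoters came from RefSeq on GRCm38.p6 and gene positions from GENCODE on GRCm38. Overlap with a neighbour makes counts uncertain for Igtp with Irgm2, Gbp4, Ifi47, Irf8 and Irf9 on the same strand, and, if strand was not used, for Irf7, Rtp4 and Irf1. The ratio script was tested on simulated data. Software was Python 3.11.15, scipy 1.17.1, R 4.3.3, edgeR 4.0.16 (TMM factors) and DESeq2 1.42.0 (size factors only).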

Additional observations from a re-analysis of the deposited data

Results flagged for a closer look

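Gbp2 was the 1 member whose interval lay on opposite sides of 0 in the 2 sorts. Its log2 ratio, Tcf7KO over Tcf7WT, was -0.31 (-0.58 to -0.05) in TCRγδ cells and 0.17 (0.03 to 0.32) in TCRβ cells. With 1 library per group the difference between the sorts was not tested. In cells with at least 3 Gzma UMIs the values were -0.55 (-0.87 to -0.22) in TCRγδ and 0.02 (-0.38 to 0.43) in TCRβ cells, and the TCRβ interval there is over 0. In the remaining cells, without cells with at least 20 epithelial UMIs, they were 0.29 (-0.22 to 0.79) in TCRγδ and 0.17 (0.00 to 0.34) in TCRβ cells, so the opposite directions were not seen there.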

How the results depend on the processing

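Under every alternative run, all 8 class medians stayed within the counting error of a typical member, judged from the median width of the members' intervals. In TCRγδ cells, Tcf7KO over Tcf7WT, they ranged from -0.26 to -0.10 for type I-type and from -0.20 to -0.04 for gamma-type members, and in TCRβ cells from -0.04 to 0.05 and from 0.08 to 0.15. Counts of called members changed as follows. In TCRβ cells, Tcf7KO over Tcf7WT, 2 members in place of 1 were higher with TMM factors, DESeq2 size factors, thinned cells, no cells with 2 or more UMIs of other-cell markers, or no cycling-marker cells, and 0 in place of 1 were lower with TMM factors, DESeq2 size factors or no other-marker cells. In TCRγδ cells 2 in place of 1 were lower with every cell weighing the same, thinned cells, no other-marker cells, or without the top cell of each gene, and 1 in place of 2 was higher at a minimum of 200 UMIs. TCRγδ over TCRβ in Tcf7KO, 3 in place of 6 were lower in thinned cells (Usp18, Ifit1 and Bst2 left the call). Shares of cells and values of spread depended on depth. Without thinning 142 of them were counted as moved and 5 as the same, and at 1000 UMIs per cell 129 and 18. Without cells with 2 or more UMIs of other-cell markers 3 moved and 144 stayed the same. No paired analysis was possible because each group is 1 library. Without replicates, no replicate could be left out either. The spread between animals is unknown, and depth limits precision: members under 50 UMIs, and shares in the TCRγδ libraries, are set by counting error.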
